A study of Rattus norvegicus with 36 samples.

Results

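The 4 genes described here encode inflammatory signalling proteins: Il6 (ENSRNOG00000010278), Il1b (ENSRNOG00000004649), Ccl2 (ENSRNOG00000007159) and Cxcl1 (ENSRNOG00000002802). They were chosen by gene identifier, among 32883 identifiers in the count table, and all 4 were among the 15644 that passed a filter on low counts. The libraries are RNA-seq libraries of precision-cut lung slices of the rat, thin sections of living lung kept in culture, in 6 groups of 6. Controls without any agent were collected at the labelled time 0 and at the labelled time 72. The other 4 groups received TGFb and were collected at 72, with TGFb alone or with Pirf, Nint or Sora added. Every drug group thus also carries TGFb, and no group received a drug without it. Pirf, Nint and Sora are taken to be the antifibrotic drug pirfenidone, the kinase inhibitor nintedanib and the kinase inhibitor sorafenib, from knowledge of the study. The labels give no dose, no unit of time and no strain, sex or age. Whether the 6 libraries of a group came from separate animals is not stated, so the p-values measure the spread between these libraries, which may be technical.

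IL-6 and IL-1 beta are cytokines, secreted proteins that start and spread inflammation. IL-1 beta is made as an inactive precursor, mostly by myeloid cells such as macrophages, and signals through its receptor to NF-kB, a transcription factor that induces many inflammatory genes. IL-6 signals through gp130 and STAT3 and can be made by macrophages, fibroblasts and epithelial cells. Ccl2 and Cxcl1 encode chemokines, which direct the movement of leukocytes. CCL2 draws monocytes through the receptor CCR2, and CXCL1 draws neutrophils through CXCR2. NF-kB is a known inducer of all these genes, and they are widely used as readouts of inflammation in lung tissue.

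Since the members were compared for moving together, their promoters are shown for what the letters share. RefSeq promoter entries, on the rat build GRCr8, matched 3 of the 4 members (Ccl2 did not match). Each runs from 250 bases before to 50 bases after the annotated start and lies on the minus strand. The Il6 window is at chr4:5894526-5894825, the Il1b window at chr3:137036532-137036831 and the Cxcl1 window at chr14:17479272-17479571. Capitals mark matches, on either strand, to 5 motifs: the NF-kB consensus by name, the cyclic AMP response element CRE as TGACGTCA, C/EBP as TTNNGNAA, the TATA box as TATAAA, and AP-1 as its usual consensus TGANTCA.
Il6: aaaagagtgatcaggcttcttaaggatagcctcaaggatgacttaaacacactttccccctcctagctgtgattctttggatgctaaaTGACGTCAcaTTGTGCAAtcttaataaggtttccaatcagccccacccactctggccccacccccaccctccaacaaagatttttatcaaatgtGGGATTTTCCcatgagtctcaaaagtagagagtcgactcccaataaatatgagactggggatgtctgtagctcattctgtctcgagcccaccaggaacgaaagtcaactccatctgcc
Il1b: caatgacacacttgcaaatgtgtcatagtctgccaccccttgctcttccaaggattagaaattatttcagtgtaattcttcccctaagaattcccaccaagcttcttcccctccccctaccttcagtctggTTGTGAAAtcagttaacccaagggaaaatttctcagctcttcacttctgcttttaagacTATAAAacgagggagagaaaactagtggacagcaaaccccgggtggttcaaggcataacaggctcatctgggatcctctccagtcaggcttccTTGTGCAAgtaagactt
Cxcl1: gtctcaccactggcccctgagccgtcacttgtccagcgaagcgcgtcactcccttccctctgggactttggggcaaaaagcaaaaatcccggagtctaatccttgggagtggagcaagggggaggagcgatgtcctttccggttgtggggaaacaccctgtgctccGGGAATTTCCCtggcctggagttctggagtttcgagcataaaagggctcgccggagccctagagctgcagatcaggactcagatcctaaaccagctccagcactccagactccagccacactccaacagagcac

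Il6 held an NF-kB match (GGGATTTTCC) at positions -68 to -59 from the start, a CRE match and a C/EBP match. Cxcl1 held a pair of overlapping NF-kB matches in opposite orientation (GGGAATTTCC and GGAATTTCCC), at positions -84 to -74 from the start. The Il1b window held C/EBP matches and a TATA match, and none of these 3 windows matched AP-1. No match overlapped a match to another motif. Among 33469 promoters of the same length, 7.51% held an NF-kB match, 1.83% a CRE match, 7.33% an AP-1 match, 41.3% a C/EBP match and 14.2% a TATA match. These matches are descriptions of letters, and binding was not measured.

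Total counts lay between 15886958 and 23255558 per library at time 0 and between 18971560 and 32933012 at 72. Levels are given as normalized counts, which are counts scaled by TMM factors (trimmed mean of M values, a scaling that sets typical genes equal between libraries) to the mean library size. They are not divided by gene length, so they are compared between libraries and not between genes. A gene is called where edgeR's quasi-likelihood test gave a Benjamini-Hochberg adjusted p under 0.05 over all 15644 genes. Fold changes are fitted values, as log2 differences with their SE. The first principal component, with 43.4% of the variance, separated time 0 from 72, and the time-0 library numbered 3 stood nearest to the 72 libraries, at 87.5 against 115 to 132 for the other 5. Since these are bulk samples, fewer cells of a type and less RNA per cell cannot be told apart. The identifiers could not be paired with names beyond the 4 members, so lung and leukocyte markers were not used here. The values of each gene in every library are plotted here.

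**Figure D1:**
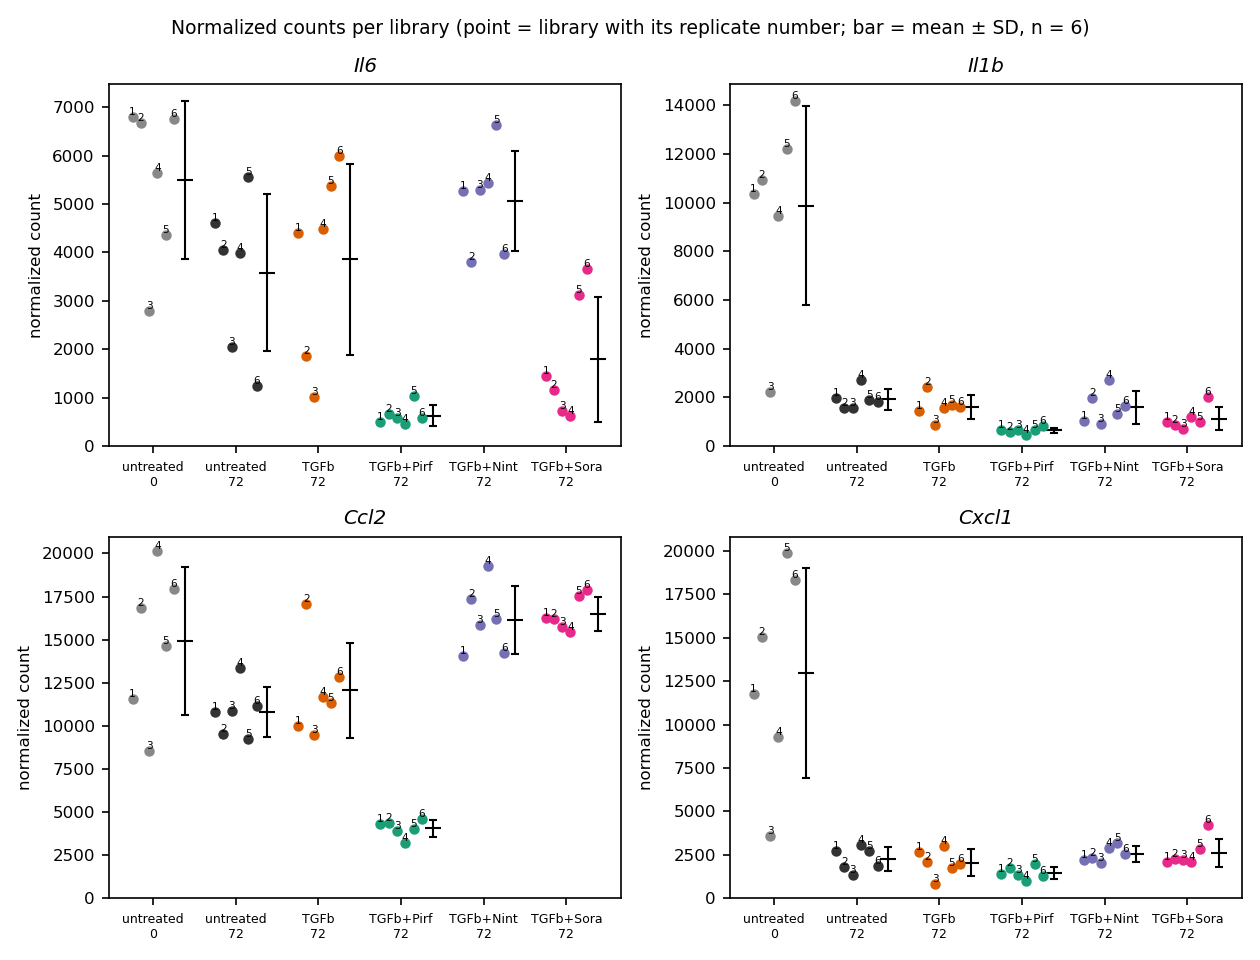
Normalized counts (vertical axes, from 0) of Il6, Il1b, Ccl2 and Cxcl1 in the 36 libraries by group (horizontal axes, treatment and labelled time). Points are libraries with their replicate numbers and bars are means ± SD (n = 6). All 4 genes have their lowest mean with Pirf, and Il1b and Cxcl1 have means at time 0 several times those at 72.

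Between 0 and 72 without treatment, Il1b, Cxcl1 and Ccl2 fell, and Il6 did not pass the test. Cxcl1, the neutrophil chemokine, fell 5.77-fold and Il1b 5.13-fold, whereas Ccl2, the monocyte chemokine, fell 1.38-fold. Thus 3 of 4 members were called, all lower, where 73.2% of all genes were called and 35.3% were called lower. The median log2 change was -1.49 over the members and 0.02 over all genes tested.

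Il1b ranged from 2212 through a median of 10644 to 14170 normalized counts at time 0, and from 1561 through 1859 to 2717 at 72. The time-0 library numbered 3 held the 2212, inside the range at 72, and the other 5 held at least 9448. The log2 change was -2.36 (SE 0.31, adjusted p = 3.16e-08). Cxcl1 ranged from 3614 through 13403 to 19867 at time 0 and from 1331 through 2287 to 3074 at 72, with no overlap. Replicate 3 was again the lowest at time 0. The log2 change of Cxcl1 was -2.53 (SE 0.30, adjusted p = 4.54e-09), and only 2.31% of the genes tested had a change as low or lower.

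Ccl2 ranged from 8532 through 15736 to 20121 at time 0 and from 9248 through 10841 to 13349 at 72, and these ranges overlap. Its log2 change was -0.46 (SE 0.14, adjusted p = 0.00495). Il6, the cytokine that acts through gp130, ranged from 2794 through 6154 to 6793 at time 0. At 72 it ranged from 1244 through 4014 to 5562, a log2 difference of -0.62 (SE 0.39, 95% interval -1.42 to 0.18, adjusted p = 0.155). The time-0 library numbered 3 was the lowest of its group for all 4 genes. Without it the log2 changes were -2.56 for Il1b (adjusted p = 1.09e-10), -2.72 for Cxcl1 (adjusted p = 4.09e-11) and -0.58 for Ccl2 (adjusted p = 0.000177). That of Il6 was -0.75 (adjusted p = 0.0922), so the calls were the same.

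With TGFb alone at 72, none of the 4 genes was called against untreated slices at 72, where 26.4% of all genes were called. TGFb is a growth factor that drives fibrosis and is known to restrain many immune responses. The count was 0 of 4 with edgeR, also at an unadjusted p under 0.05, and 0 of 4 with DESeq2 and with limma. The median log2 change was -0.01 over the members and 0.02 over all genes tested.

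Il6 had a mean of 3855 ± 1980 normalized counts (SD, n = 6) with TGFb and 3580 ± 1620 without. Its log2 difference of 0.11 had a 95% interval of -0.69 to 0.90. With TGFb the Il6 values fell into 2 ranges, 1018 and 1869 in replicates 3 and 2, and 4403 to 5989 in the other 4. Il1b stood at 1601 ± 494 and 1927 ± 425 (log2 difference -0.27, 95% interval -0.87 to 0.34). Cxcl1 stood at 2062 ± 767 and 2251 ± 691 (log2 difference -0.13, -0.71 to 0.46). Ccl2, at 12053 ± 2740 and 10830 ± 1450, had the narrowest interval, from -0.14 to 0.45 around 0.15. Replicate 3 with TGFb was the lowest of its group for all 4 genes. In a fit with the TMM factor of each library as a covariate, added after the data were seen, the Il6 difference turned from 0.11 to -0.51 (adjusted p = 0.238). The Cxcl1 difference moved from -0.13 to -0.54 (adjusted p = 0.097), and none of the 4 was called.

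The comparisons of Pirf, Nint and Sora with TGFb alone share the same 6 TGFb-alone libraries and are given side by side. Adding Pirf to TGFb lowered Il6, Ccl2 and Il1b, by 6.10-fold, 2.96-fold and 2.50-fold. Cxcl1 was 1.41-fold lower and did not pass the test. With 3 of 4 members called, all lower, the background was 51.5% of genes called and 26.4% called lower. The median log2 change was -1.44 over the members and 0.00 over all genes tested. On total counts alone, without TMM factors, the median log2 change of all genes moved by 0.153 in this comparison, by 0.101 for Sora against TGFb alone and by -0.149 for Nint against Pirf. The number of members called was the same in each.

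Il6 ranged from 446 through 579 to 1033 normalized counts with Pirf and from 1018 through 4444 to 5989 with TGFb alone. The highest Pirf library (replicate 5) lay just above the lowest TGFb-alone library (replicate 3), and the other 5 Pirf libraries lay below every TGFb-alone library. The log2 change was -2.61 (SE 0.42, adjusted p = 5.34e-06), and 0.748% of the genes tested had a change as low or lower. Ccl2 ranged from 3192 through 4169 to 4590 with Pirf and from 9452 through 11495 to 17062 with TGFb alone. The ranges of Ccl2 are far apart, with a log2 change of -1.57 (SE 0.15, adjusted p = 4.52e-10).

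Il1b ranged from 453 through 661 to 813 with Pirf and from 870 through 1590 to 2407 with TGFb alone, with no overlap (log2 change -1.32, SE 0.30, adjusted p = 0.000539). Cxcl1 ranged from 1008 through 1380 to 1956 with Pirf, inside the 820 to 3035 seen with TGFb alone. Its log2 difference was -0.50 (SE 0.29, 95% interval -1.09 to 0.09, adjusted p = 0.146). Without TGFb-alone replicate 3, the lowest library, the Cxcl1 difference was -0.65 with an adjusted p of 0.0464, and without the libraries numbered 3 of all groups it was -0.63 (adjusted p = 0.0198).

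The TMM factors moved with this comparison, since they were 1.06 to 1.08 with Pirf and 0.894 to 1.02 with TGFb alone. In a fit with the factor as a covariate, the log2 change of Il6 with Pirf was -1.16 (adjusted p = 0.0239) in place of -2.61. That of Ccl2 was -1.62 (adjusted p = 6.72e-08) and that of Il1b -1.03 (adjusted p = 0.0369), so the same 3 genes were called. The Cxcl1 difference turned from -0.50 to 0.45 and was not called in either fit (adjusted p = 0.273 with the covariate). The factor ranges of these groups do not overlap, so the covariate is extrapolated between them.

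Nint left none of the 4 genes called against TGFb alone, where 3.09% of all genes were called. The count was 0 of 4 with edgeR, DESeq2 and limma, and 1 of 4, Ccl2, at an unadjusted p under 0.05 in edgeR. The median log2 difference was 0.35 over the members and -0.02 over all genes tested.

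Ccl2 ranged from 14045 through 16017 to 19276 normalized counts with Nint, above 5 of the 6 TGFb-alone libraries. Only TGFb-alone replicate 2, at 17062, lay within the Nint range. The log2 difference was 0.42 (SE 0.14, 95% interval 0.13 to 0.72, adjusted p = 0.119), and without that replicate it was 0.55 (adjusted p = 0.0323). Il6 ranged from 3792 through 5275 to 6623 with Nint, and its log2 difference was 0.39 (95% interval -0.40 to 1.19). No Nint library reached the low Il6 range of TGFb-alone replicates 2 and 3. Il1b, at 1599 ± 678 with Nint and 1601 ± 494 without (SD, n = 6), had an interval of -0.61 to 0.60. Cxcl1, at 2535 ± 449 and 2062 ± 767, had an interval of -0.29 to 0.88.

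With Sora, Ccl2 was higher than with TGFb alone, and Il6 was lower without passing the test. Of the 4 members 1 was called, Ccl2, where 15.4% of all genes were called and 7.01% were called higher. The median log2 difference was -0.08 over the members and 0.00 over all genes tested.

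Ccl2 ranged from 15453 through 16201 to 17854 with Sora, the tightest spread of any member in any group, with a coefficient of variation of 5.91%. As with Nint, it lay above 5 of the 6 TGFb-alone libraries, and the log2 change was 0.45 (SE 0.14, adjusted p = 0.031). The call was lost without TGFb-alone replicate 1, 3, 4 or 5, without Sora replicate 6 and with the TMM factor as a covariate, at adjusted p-values of 0.0515 to 0.116.

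Il6 with Sora had a mean of 1789 ± 1290 against 3855 ± 1980 with TGFb alone (SD, n = 6). It was split within the group: replicates 5 and 6 held 3118 and 3660, and the other 4 held 630 to 1450. The log2 difference was -1.11 (SE 0.40, adjusted p = 0.0546). The adjusted p was 0.0383 with DESeq2. It lay between 0.0148 and 0.0324 without TGFb-alone replicate 2 or 3 or without Sora replicate 5 or 6, and was 0.0444 without the libraries numbered 3. It was 0.191 in a fit of the 2 groups alone and up to 0.137 without any 1 of the other libraries. With the TMM factor as a covariate the difference was -0.31 (adjusted p = 0.654). The factors were 0.968 and 0.993 in Sora replicates 5 and 6 and 1.04 to 1.07 in the other 4. Those 4 lay above every TGFb-alone factor (0.894 to 1.02), so this fit is in part extrapolated between the groups. Il1b ranged from 712 through 986 to 2030 with Sora (log2 difference -0.50, SE 0.30, adjusted p = 0.258). Cxcl1 ranged from 2064 through 2228 to 4199 (log2 difference 0.34, SE 0.29, adjusted p = 0.448), and with the covariate its difference was 0.96 (adjusted p = 0.0208).

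**Figure D2:**
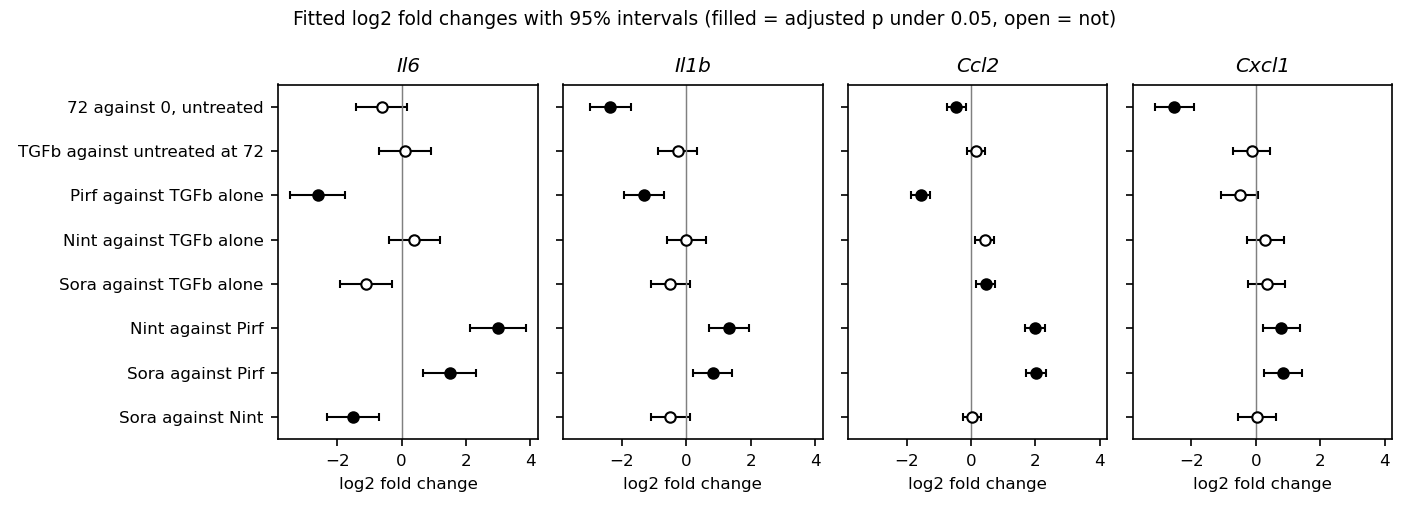
Fitted log2 fold changes (horizontal axes) of Il6, Il1b, Ccl2 and Cxcl1 in 8 comparisons (rows), with 95% intervals as bars. Filled points passed an adjusted p of 0.05 and open points did not: 3 of 4 genes are filled for 72 against 0 and for Pirf, 4 of 4 for Nint and for Sora against Pirf, and none for TGFb or for Nint against TGFb alone.

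The drugs were next compared directly, over 3 pairs. Since doses are unknown, the pairs are not known to be matched in dose. All 4 genes were higher with Nint than with Pirf, where 54.6% of all genes were called and 26.5% were called higher. The log2 differences were 3.001 for Il6 (SE 0.42, adjusted p = 6.26e-07), 1.99 for Ccl2 (SE 0.15, adjusted p = 4.01e-12), 1.32 for Il1b (SE 0.30, adjusted p = 0.000489) and 0.80 for Cxcl1 (SE 0.29, adjusted p = 0.0194). In each of these genes every Nint library lay above every Pirf library. With the TMM factor as a covariate the Cxcl1 difference was -0.047 (adjusted p = 0.917) and the Il6 difference 1.68 (adjusted p = 0.00109). Those of Il1b and Ccl2 were 1.05 and 2.04 (adjusted p = 0.0305 and 1.2e-09). The factors, 0.935 to 0.999 with Nint and 1.06 to 1.08 with Pirf, do not overlap, so this fit too is extrapolated between the groups.

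All 4 genes were also higher with Sora than with Pirf, where 42.1% of all genes were called and 21.8% were called higher. The log2 differences were 2.02 for Ccl2 (adjusted p = 6.12e-12), 1.5 for Il6 (adjusted p = 0.00342), 0.84 for Cxcl1 (adjusted p = 0.0192) and 0.82 for Il1b (adjusted p = 0.0285). Every Sora library lay above every Pirf library for Ccl2 and Cxcl1, and 4 of 6 did for Il6 and 5 of 6 for Il1b. With the TMM factor as a covariate the Il6 difference was 0.84 (adjusted p = 0.0334). The Il1b call was lost without Pirf replicate 2 or 4 or Sora replicate 6, with limma and with the covariate, at adjusted p-values of 0.0515 to 0.127. The Cxcl1 call was lost without Sora replicate 6 (adjusted p = 0.0732) and with the covariate (adjusted p = 0.0863).

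Sora and Nint differed in Il6, with 1 of 4 members called, lower with Sora, where 11% of all genes were called and 4.56% were called lower. All 6 Sora libraries, at 3660 or less, lay below the lowest Nint library at 3792. The log2 difference was -1.501 (SE 0.40, adjusted p = 0.0155), and 0.294% of the genes tested had a difference as low or lower. With the TMM factor as a covariate it was -0.83 (adjusted p = 0.191), where the factors were 0.935 to 0.999 with Nint and 0.968 to 1.07 with Sora. For Ccl2 the difference was 0.03 (95% interval -0.26 to 0.33), for Cxcl1 0.04 (-0.54 to 0.62) and for Il1b -0.50 (-1.11 to 0.11). The Ccl2 interval was the narrowest of these and that of Il1b the widest.

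Each drug group was also set against untreated slices at 72, which received neither TGFb nor a drug. With TGFb and Pirf 3 of 4 members were called, all lower, where 52% of all genes were called and 26% were called lower. Il6 was 5.66-fold lower (adjusted p = 8.25e-06), Il1b 3.01-fold (adjusted p = 5.94e-05) and Ccl2 2.66-fold (adjusted p = 2.79e-09), with no overlap of libraries in these 3 genes. With the TMM factor as a covariate the log2 change of Il6 was -1.67 (adjusted p = 0.000138) in place of -2.50. Cxcl1 was 1.54-fold lower (adjusted p = 0.0674). Its adjusted p was 0.0191 in a fit of the 2 groups alone, 0.0346 without untreated replicate 3, 0.0447 without Pirf replicate 5 and 0.00847 without the libraries numbered 3, and its log2 difference was -0.09 with the covariate.

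With TGFb and Nint, 1 of 4 was called, Ccl2, 1.49-fold higher (adjusted p = 0.00299), where 26.4% of all genes were called and 12.6% were called higher. With TGFb and Sora the called gene was again Ccl2, 1.52-fold higher (adjusted p = 0.00254), where 25% were called and 13.1% were called higher. All 6 libraries of either drug group lay above all 6 untreated libraries for Ccl2. Il6 and Il1b had log2 differences of -1.001 (adjusted p = 0.0609) and -0.77 (adjusted p = 0.0561) with TGFb and Sora. Over 20 alternatives, 8 brought Il6 and 6 brought Il1b past the threshold, with adjusted p-values from 0.0138 to 0.152 for Il6 and from 0.0121 to 0.139 for Il1b.

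In the order of group means, Il6 ran from untreated at 0 through Nint, TGFb alone, untreated at 72 and Sora to Pirf, and the only neighbours that differed by the test were Sora and Pirf. Il1b ran from untreated at 0 through untreated at 72, TGFb alone, Nint and Sora to Pirf, and the outermost steps at either end passed the test. Ccl2 ran from Sora through Nint, untreated at 0, TGFb alone and untreated at 72 to Pirf, and only the last step passed the test. The step from untreated at 0 to TGFb alone had an adjusted p of 0.0522 for Ccl2, between 0.00282 and 0.197 over 20 alternatives. Cxcl1 ran from untreated at 0 through Sora, Nint, untreated at 72 and TGFb alone to Pirf, and only the first step passed the test (log2 difference 2.31, adjusted p = 2.07e-08).

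Against time 0 the background was 77.3% of genes called in either direction with TGFb alone, 75.4% with Pirf, 77.7% with Nint and 76.4% with Sora. In the same order, 2, 4, 2 and 3 of the 4 members were called, all lower. The share of all genes called lower was not computed for these comparisons. Il1b and Cxcl1 were called lower in each of these groups, by log2 changes of -2.62, -3.95, -2.63 and -3.13 for Il1b and -2.65, -3.15, -2.36 and -2.31 for Cxcl1, in the same order. Il6 was called lower with Pirf and Sora (-3.12 and -1.62), and Ccl2 with Pirf (-1.88). With the TMM factor as a covariate each of these was also called, and Il6 stood at -1.74 with Pirf and -0.90 with Sora (adjusted p = 0.000247 and 0.0163), and Cxcl1 at -2.20 and -1.69 (adjusted p = 2.77e-07 and 2.09e-06). The factors with Pirf (1.06 to 1.08) and at time 0 (0.91 to 1.01) do not overlap, so the covariate is extrapolated between these groups. Ccl2 with Nint and Sora differed from time 0 by 0.11 (95% interval -0.18 to 0.41) and 0.14 (-0.15 to 0.44).

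Whether the members changed unequally was examined with the log2 ratio of the counts of a pair of members within each library, which no scaling factor can alter. These 30 tests, over 6 pairs and 5 comparisons, were added after the data were seen, each a two-sided exact permutation test between groups of 6, with Benjamini-Hochberg adjustment over the 30. The ratio of Ccl2 to Cxcl1 rose from 0.34 ± 0.68 at time 0 to 2.32 ± 0.46 at 72 without treatment (exact permutation p = 0.00216, the smallest that this design allows, adjusted p = 0.0162). The ratio of Il6 to Cxcl1 rose from -1.11 ± 0.64 to 0.56 ± 0.63 (exact permutation p = 0.00433, adjusted p = 0.0162). The ratio of Il1b to Cxcl1 was -0.40 ± 0.29 and -0.19 ± 0.28, a difference that did not pass (exact permutation p = 0.229, adjusted p = 0.344). Il6 to Il1b rose from -0.71 ± 0.61 to 0.75 ± 0.78 (exact permutation p = 0.00433, adjusted p = 0.0162). Il1b to Ccl2 fell from -0.74 ± 0.68 to -2.51 ± 0.21 (exact permutation p = 0.00216, adjusted p = 0.0162). Il6 to Ccl2 did not pass (exact permutation p = 0.487, adjusted p = 0.622).

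Pirf lowered the ratio of Il6 to Cxcl1 from 0.77 ± 0.70 with TGFb alone to -1.23 ± 0.21 (exact permutation p = 0.00216, adjusted p = 0.0162), with all 6 Pirf libraries below all 6 others. It lowered the ratio of Ccl2 to Cxcl1 from 2.63 ± 0.63 to 1.51 ± 0.29, with the same p-values. Cxcl1 therefore changed less with Pirf than Il6 or Ccl2 did. The ratio of Il1b to Cxcl1 fell from -0.32 ± 0.50 to -1.17 ± 0.36 (exact permutation p = 0.013, adjusted p = 0.0355), and this call was lost when any 1 of 9 of the 12 libraries was left out (adjusted p = 0.0541 to 0.0648). The ratio of Il6 to Ccl2 was -1.86 ± 1.05 with TGFb alone and -2.74 ± 0.41 with Pirf (exact permutation p = 0.0844, adjusted p = 0.158). Il6 to Il1b was lower by 1.146 (exact permutation p = 0.0281, adjusted p = 0.0648, or 0.0236 without TGFb-alone replicate 2). Il1b to Ccl2 was higher by 0.265 (exact permutation p = 0.0455, adjusted p = 0.0975, or 0.0325 without Pirf replicate 2).

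Sora lowered Il6 relative to Cxcl1, from 0.77 ± 0.70 to -0.82 ± 0.76 (exact permutation p = 0.00433, adjusted p = 0.0162). It lowered Il1b relative to Ccl2, from -2.95 ± 0.26 to -3.95 ± 0.47, with the same p-values, and Il1b relative to Cxcl1, from -0.32 ± 0.50 to -1.24 ± 0.32 (exact permutation p = 0.00649, adjusted p = 0.0195). Both cytokines thus stood lower relative to the neutrophil chemokine with Sora, although neither cytokine was called alone. Il6 to Ccl2 was -1.86 ± 1.05 with TGFb alone and -3.52 ± 0.97 with Sora (exact permutation p = 0.0216, adjusted p = 0.054). Its adjusted p was 0.0325 without TGFb-alone replicate 2 or without replicate 3. With Sora, Il6 to Il1b and Ccl2 to Cxcl1 did not pass (exact permutation p = 0.225 and 0.745, adjusted p = 0.344 and 0.798). TGFb lowered Il1b relative to Ccl2 from -2.51 ± 0.21 to -2.95 ± 0.26 (exact permutation p = 0.00649, adjusted p = 0.0195). No other ratio passed with TGFb, the lowest adjusted p being 0.476 for Ccl2 to Cxcl1. With Nint none of the 6 ratios passed, the lowest adjusted p being 0.117 for Il1b to Ccl2, or 0.0433 without TGFb-alone replicate 3.

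**Figure D3:**
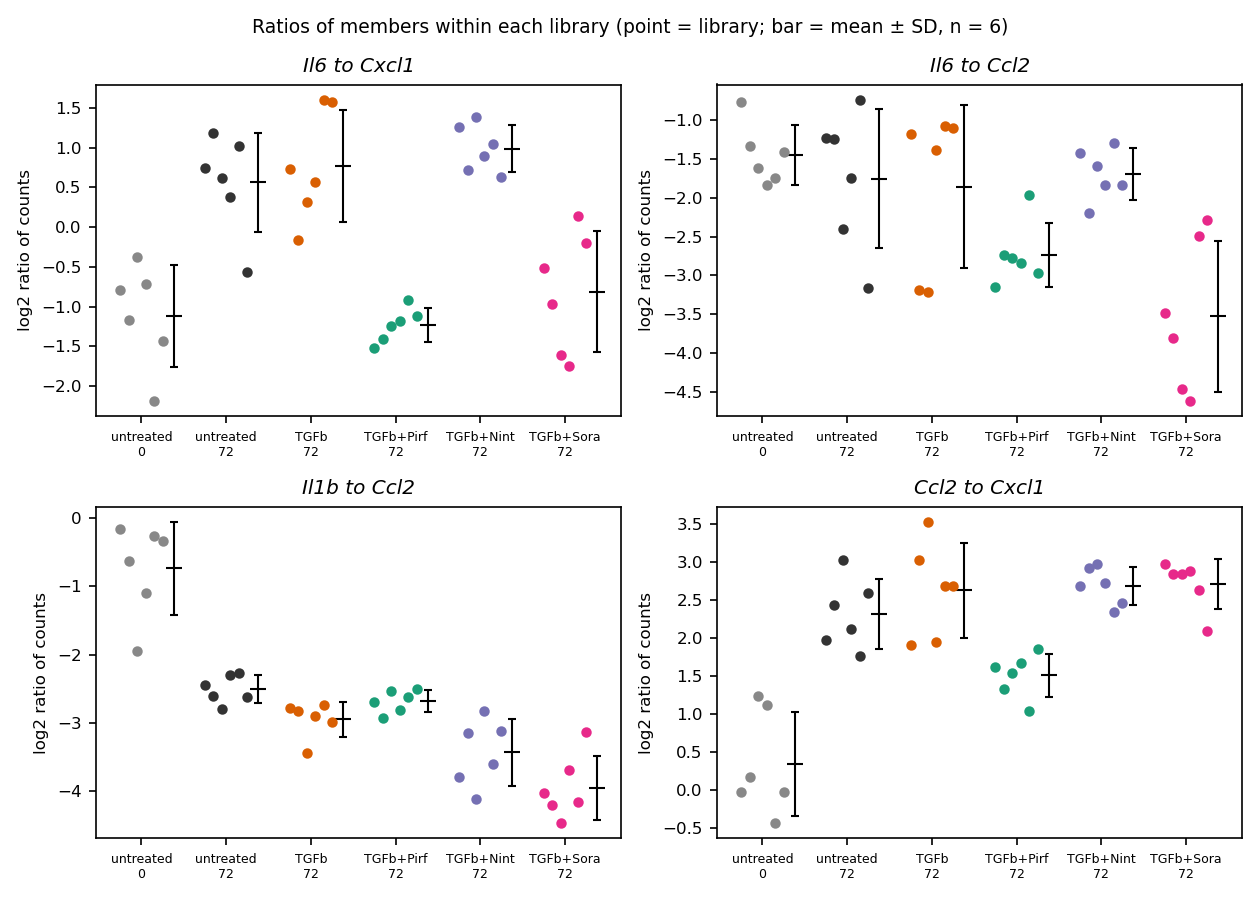
Log2 ratios of counts (vertical axes) for 4 pairs of members in each library, by group (horizontal axes). Points are libraries and bars are means ± SD (n = 6). Il6 to Cxcl1 is lower with Pirf and Sora than with TGFb alone, Il1b to Ccl2 is lowest with Sora, and Ccl2 to Cxcl1 is lower with Pirf than in the other groups at 72.

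Within groups, the members varied together to different degrees. Correlations were computed over the 36 libraries after removing each group's mean from log2 CPM, with permutation of libraries within groups and adjustment over 6 pairs. Il1b and Cxcl1 had r = 0.77 and rho = 0.58 (permutation p = 3e-05 and 0.00043, adjusted p = 9e-05 and 0.00086). Il1b and Ccl2 had r = 0.74 and rho = 0.61 (permutation p = 2e-05 and 0.0001, adjusted p = 9e-05 and 0.0003). Il6 and Cxcl1 had r = 0.64 and rho = 0.65 (permutation p = 9e-05 and 3e-05, adjusted p = 0.00018 for each). These pairs had a positive r in all 6 groups.

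Without the 2 libraries farthest from the median of the first gene, r was 0.51 for Il1b and Cxcl1, 0.52 for Il1b and Ccl2 and 0.56 for Il6 and Cxcl1 (permutation p = 0.00187, 0.00045 and 0.00057). The libraries left out were replicate 3 at time 0 and replicate 3 with TGFb alone for Il1b with Cxcl1 and with Ccl2. For every pair with Il6 they were replicate 3 with TGFb alone and untreated replicate 6 at 72. Ccl2 and Cxcl1 had r = 0.53 and rho = 0.40 (permutation p = 0.0214 and 0.0327, adjusted p = 0.0257 and 0.049). Without replicate 3 at time 0 and replicate 2 with TGFb alone, r was 0.29 (permutation p = 0.136), so its size depends in part on those 2 libraries. Inside groups r was positive in all 6 for this pair too, from 0.255 in untreated slices at 72 to 0.885 with Sora. Il6 and Il1b had r = 0.39 and rho = 0.24 (permutation p = 0.0129 and 0.162, adjusted p = 0.0193 and 0.194), and r = 0.33 without 2 libraries (permutation p = 0.0642). Il6 and Ccl2 had r = 0.21 and rho = 0.18 (permutation p = 0.21 and 0.293, adjusted p = 0.21 and 0.293), and r = 0.15 without 2 libraries (permutation p = 0.371).

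**Figure D4:**
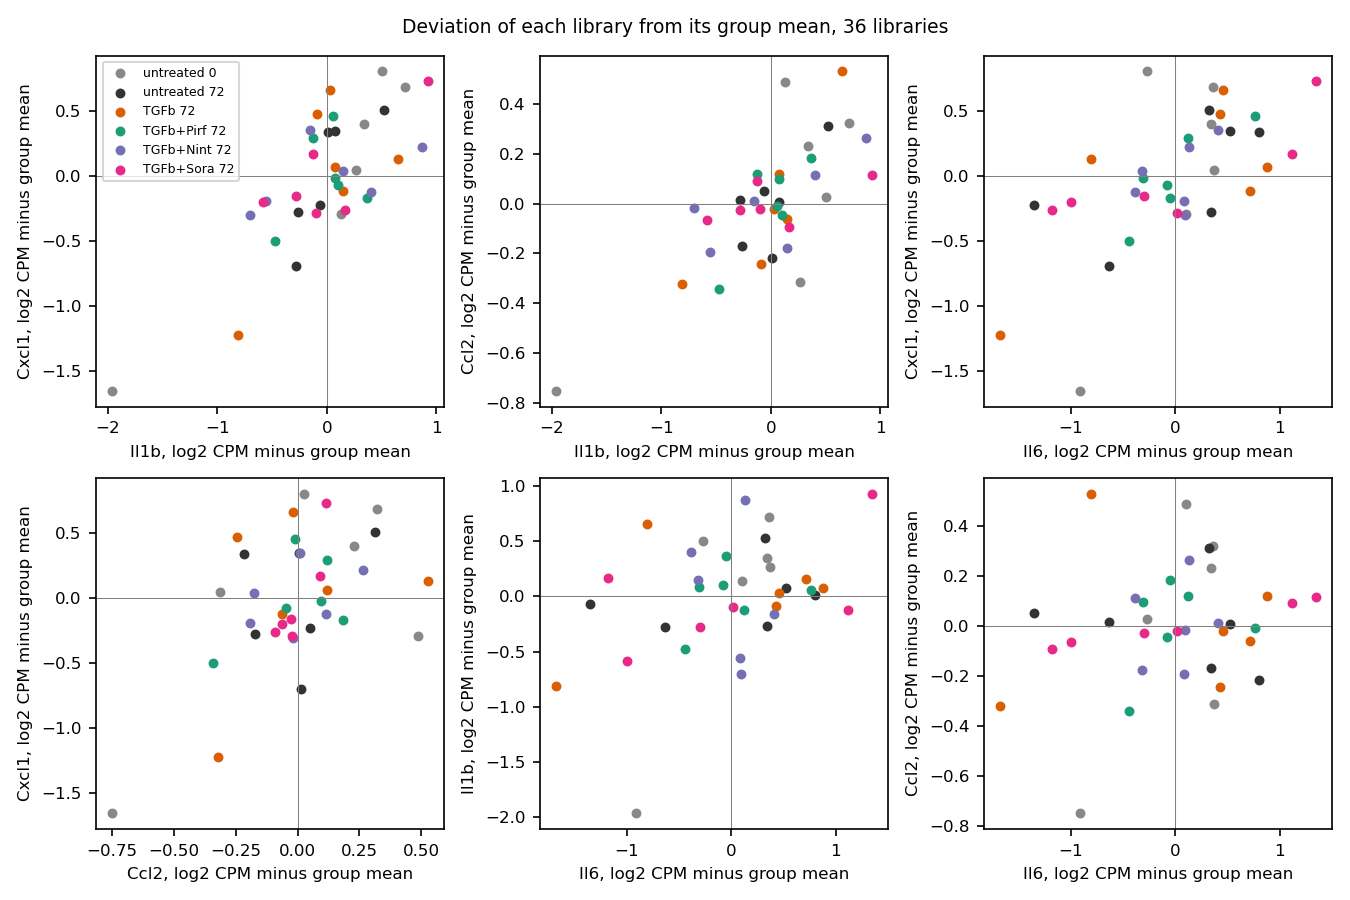
Deviation of each library's log2 CPM from its group mean for the 6 pairs of members, with 36 libraries coloured by group. The time-0 library numbered 3 lies below 0 on both axes in every panel. Without the libraries numbered 3, r is 0.47 for Il1b with Cxcl1, 0.58 for Il1b with Ccl2 and 0.49 for Il6 with Cxcl1.

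Il6 and Cxcl1 also varied with the TMM factor of the library inside groups, with a negative r in 5 of 6 groups for Il6 (group values from -0.84 to 0.39) and in 4 of 6 for Cxcl1 (-0.89 to 0.06). The group-centred correlation with the log2 factor was r = -0.70 and rho = -0.74 for Il6 (permutation p = 0.00012 and 1e-05, the latter the smallest that 100000 resamples give, adjusted p = 0.00034 and 4e-05). For Cxcl1 it was r = -0.64 and rho = -0.64 (permutation p = 0.00017 and 0.00021, adjusted p = 0.00034 and 0.00042). Without the 2 libraries with the most distant factors these were -0.68 and -0.63 (permutation p = 0.00018 and 0.00057). For Il1b it was r = -0.26 and rho = -0.16 (permutation p = 0.167 and 0.371, adjusted p = 0.223 and 0.495), and r = -0.31 without 2 libraries. For Ccl2 it was r = 0.03 and rho = -0.01 (permutation p = 0.89 and 0.946, adjusted p the same), and r = 0.05 without 2 libraries. The log2 CPM values are themselves divided by the factor, so part of a negative r is built in. The permutation does not account for this, and the size of that part was not tested. The part of the factor in the group differences was not tested beyond the covariate fits above.

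The genes whose log2 CPM followed each member most closely over the 36 libraries were found by Pearson's r, as a description. For Il1b the closest was ENSRNOG00000011205 (r = 0.97, and 0.89 on group-centred values), with a log2 change of -2.17 from 0 to 72 and -1.82 with Pirf (adjusted p = 1.68e-08 and 3.25e-06). For Il6 the closest was ENSRNOG00000058186 (r = 0.96, and 0.91 group-centred), with a log2 difference of -0.23 from 0 to 72 (adjusted p = 0.441) and -1.51 with Pirf (adjusted p = 3.31e-05). The closest gene to Cxcl1 had r = 0.96 (0.90 group-centred) and the closest to Ccl2 had r = 0.94 (0.90 group-centred). None of the closest genes was another member. The libraries share groups, depth and scaling, and the files do not pair these identifiers with names.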

How the data were processed

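Slices yielded RNA through an RNeasy 96 kit, and stranded libraries were built after Ribo-Zero depletion, per the labels' protocols. The submitters' processing notes name RSEM, edgeR and the build Rnor_6.0. Aligner, annotation release and strand setting: not given in the sources used here. Expected counts come from the count table deposited by the authors and were not whole in 8.59% of values, but all 144 values of the 4 members were whole. A further deposited table, the authors' log2 CPM for expressed protein-coding genes, served only for an alternative. All 36 column headers carry the same date codes. They differ in a further field, of a letter and numbers, whose meaning the labels do not state, and its relation to the values was not tested.

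After rounding, these counts went into edgeR 4.0.16 (R 4.3.3), with filterByExpr, TMM factors, and a single quasi-likelihood fit of all 36 libraries with a mean per group. Benjamini-Hochberg adjustment ran over 15644 genes. Log2 CPM for correlations used a prior count of 2. The procedure was tested on simulated data. For the edgeR fit these had the same spread setting for every gene, so genes as variable as Il6 with Sora (coefficient of variation 71.9%) were not covered. Alternatives were DESeq2 1.42.0, limma 3.58.1 on the deposited table, total counts alone, no filter, the 2 groups alone, the replicate number as a block, and each library left out; correlations also used a prior count of 0.5. Chosen after the data were seen were the ratios, the comparisons with time 0, the TMM covariate and leaving out all libraries numbered 3. The members and lists were chosen with earlier results of these data known. The rule for other named genes took the 2 with the highest r per member, but, as no names were paired, only 2 identifiers are printed. Lists of cytokines, receptors, NF-kB targets and cell type markers were fixed by symbol and not used for the same reason.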

Additional observations from a re-analysis of the deposited data

Results flagged for a closer look

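Single libraries stood apart from their group of 6 in 5 cases, where the gap to the nearest library exceeded 0.625 of the group's range. All 4 genes in all 6 groups were examined on 2 scales (48 tests), and chance marks about 1 in 20 such groups. On log2 CPM, Il1b in the time-0 library numbered 3 stood at 6.52, with the nearest at 8.614. On normalized counts, Il6 with Pirf in replicate 5 stood at 1033, with the nearest at 658.9. Il1b in untreated replicate 4 at 72 stood at 2717 (nearest 1993). Sora replicate 6 stood high for Il1b, at 2030 (nearest 1195), and for Cxcl1, at 4199 (nearest 2833). Without Sora replicate 6, the log2 difference between Sora and Pirf was 0.57 for Il1b and 0.65 for Cxcl1.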

How the results depend on the processing

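The number of members called was equal under all 20 alternatives for 72 against 0 (3), TGFb (0) and TGFb plus Nint against untreated (1). It was 3 or 4 for Pirf against TGFb alone, TGFb plus Pirf against untreated and Nint against Pirf. For Sora against TGFb alone (1 member) it was 2 with DESeq2, with the replicate block and without the libraries numbered 3, and ranged from 0 to 2 with single libraries left out. For TGFb plus Sora against untreated (1) it was 3 with DESeq2 and the replicate block, and 2 in the 2 groups alone, with limma, with the TMM covariate and without the libraries numbered 3; single libraries left out gave 1 to 3. It was 2 for Sora against Pirf (4) and 0 for Sora against Nint (1) with the TMM covariate. Single libraries left out gave 2 to 4 for Sora against Pirf and 0 to 1 for Nint against TGFb alone. The only called value to change sign was Cxcl1 between Nint and Pirf, at -0.047 with the covariate, which is extrapolated between these groups. Replicate numbers were not taken to pair the libraries, since 22 of 90 same-number pairs, not all, had a correlation of deviations over 0.1. As a hint from the data and not the design, 12 of 36 libraries correlated best with their own number, where equal chances give 6. The replicate block brought Il6 past the threshold for Sora against TGFb alone (adjusted p = 0.0292), Il6 and Il1b for TGFb plus Sora against untreated (0.0224 and 0.0188) and Ccl2 for TGFb alone against 0 (0.0472). With the replicate block, r was 0.22 for Il6 with Il1b and 0.485 for Ccl2 with Cxcl1, neither past the threshold. Without 2 libraries these were 0.326 and 0.288, and without the libraries numbered 3 they were 0.071 and 0.152. The cause was not tested for any of these.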
